A study of Mus musculus with 12 samples.

Results

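The genes described here encode small EF-hand proteins of the S100 family (*S100a4*, *S100a6*, *S100a10*, *S100a11*), galectins (*Lgals1*, *Lgals3*), annexins (*Anxa1*, *Anxa2*) and the intermediate filament protein vimentin (*Vim*). The list was chosen by expression values of these libraries that were already known, and its genes were taken by symbol from a table of 25263 symbols. Of the 9 genes listed, 8 had a row, each a single one. *S100a4* had none and was not analysed here; in GENCODE M21 (build GRCm38) its locus on chromosome 3 (90603771 to 90606045) overlaps that of *Gm42674*, which had no row either. RNA came from adult mouse bone marrow leukemic cells carrying MLL-AF9 (MA9 in the labels), a fusion oncogene of acute leukemia. The cells were grown overnight with IL-3, IL-6 and GM-CSF at 10 ng/mL each and SCF at 100 ng/mL, infected with retrovirus and sorted for high GFP. WT-GFP (C57BL/6, wild type Hoxa cluster, control virus) and WT-Cre (the same, Cre recombinase virus) had 3 libraries each. Hoxa-flox (C57BL/6J, Hoxa cluster flanked by loxP sites, control virus) and Hoxa-del (the same background after Cre) also had 3 each. Whether replicates were separate cultures, animals or leukemias is not given, and the p-values below therefore reflect the spread among these 12 libraries, which may be technical.

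Most S100 proteins and the annexins bind calcium, and annexins then attach to acidic membrane lipids. S100A10, the exception among S100 proteins in that it does not bind calcium, and annexin A2 form a complex at the cell membrane that binds plasminogen and anchors the scaffold protein AHNAK, and S100A11 binds annexin A1. Galectins bind beta-galactoside sugars on glycoproteins, and galectin-3, also known as Mac-2, is a classical macrophage antigen. Annexin A1 is abundant in myeloid cells and acts through formyl peptide receptors, and vimentin is the main intermediate filament of leukocytes and mesenchymal cells.

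The 6 floxed libraries fall into 2 sets that cross the design, and the sets were read from the same expression values. Hoxa-flox 1, Hoxa-flox 2 and Hoxa-del 2 are called set A here, and Hoxa-flox 3, Hoxa-del 1 and Hoxa-del 3 set B. Because these values chose the sets, and the genes were proposed with them known, differences between the sets are described without a test. *Hoxa9*, within the cluster that Cre removes, read 235, 217 and 257 FPKM (fragments per kilobase and library size) in Hoxa-flox. It read 83.5, 114 and 119 in Hoxa-del, where its RNA was thus lower and still present, and 152 to 183 in the 6 WT libraries. Estimated depth ran from 3.7 to 17.6 M fragments per library. The value of a member that rests on the fewest estimated fragments, *S100a10* in WT-Cre 2, stands for about 67.4, with a counting error of about 12.2%.

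Among the cell markers, all 10 genes of the myeloid leukemia list had a row and a mean above 1 FPKM, and their sum ran from 2537 to 5413 FPKM. The macrophage, proliferation, stromal, endothelial, megakaryocyte and mast cell sums did not overlap between the sets. The 10 macrophage markers summed to 283 to 291 FPKM in set A, 70.9 to 76.9 in set B and 347 to 391 in WT. Of these, 5 were higher in every library of set A than in any of set B, and 5 overlapped. *C1qa*, *C1qb* and *C1qc*, defining genes of mature macrophages, were at 0 throughout set B and under 1 FPKM in set A. In WT they read 20.9 to 56.2. *Mrc1*, *Msr1* and *Mertk* were also under 1 FPKM in every floxed library and higher in every WT library. *Adgre1* (95.3 to 99.4 in set A, 41.1 to 48.2 in WT) and *Cd14* (32.8 to 35.1, 23.4 to 27.3) were instead higher in set A than in WT. *Csf1r* was lower in set A than in WT, and *Cd68* overlapped. The sum thus does not describe each marker. The 6 proliferation markers ran opposite to the macrophage sum, at 143 to 165 in set A and 379 to 466 in set B, with 229 to 282 in WT. The values that chose the sets include these markers, so their split is a description only. Fibroblast and stromal markers summed to 15.7 to 16.5 in set A, 7.57 to 8.92 in set B and 3.53 to 5.82 in WT. Of the 8 with a row, 4 stayed under 1 FPKM in every library, and *Col1a2* and *Postn* were at 0 throughout set A. *Cxcl12* (1.54 to 3.66 in set A, at most 0.184 in WT) and *Pdgfrb* (1.52 to 1.64, at most 0.183) were instead higher in set A than in WT. In set B *Pdgfrb* was also above WT, at 0.833 to 1.12, while *Cxcl12* was at most 0.110. Most of the sum in the floxed libraries was *Acta2*, the smooth muscle actin gene, at 9.48 to 11.1 in set A. The 10 neutrophil markers summed to 1511 to 1830 in set A, 155 to 1677 in set B and 5812 to 6427 in WT. Most of that sum was *S100a8*, *S100a9* and *Ngp*. *Ly6g* (17.7 to 30.8 in set A, at most 4.03 in WT) and *Mmp9* (48.3 to 61.1, at most 24.6) were instead higher in set A than in WT. *Cxcr2* overlapped between set A and WT. Endothelial markers, mostly *Pecam1*, summed to 42.2 to 48.2 in set A, 18.8 to 30.9 in set B and at most 15.2 in WT. Megakaryocyte markers summed to 7.44 to 8.51, 2.59 to 5.98 and 99.4 to 116 in the same order, and mast cell and basophil markers to 10.1 to 11.4, 13.8 to 18.1 and 2.08 to 3.13. In the latter list the difference from WT lay in *Gata2*, also a progenitor gene (7.64 to 13.7 in the floxed libraries, at most 0.128 in WT), while *Cpa3* stayed under 1 FPKM and *Fcer1a* was at 0 in every floxed library. T and NK cell markers summed to 11.7 to 116 over all libraries, nearly all of it *Klrb1c* (7.65 to 107), with *Cd3d*, *Cd3e* and *Cd2* under 1 FPKM throughout, B cell markers to at most 2.73 and erythroid markers to at most 5.64. In bulk RNA, fewer cells of a type and less RNA per cell cannot be told apart, and the part of these markers in the values below was not tested.

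The promoters of the genes that differed most between the floxed sets, *S100a6*, *Lgals3* and *Anxa2*, are shown beside those of *Anxa1* and *Vim*, whose sets overlapped. Sequences are from RefSeq (build GRCm38.p6), 300 bases each, from 250 bases before the start of the gene to 50 after it, on the strand of the gene. The RefSeq starts of all these genes lie inside the GENCODE M21 spans given below, that of *Lgals3* by the most, so the 2 annotations place the starts differently. Capitals mark matches on either strand to AP-1 (TGANTCA), CRE (TGACGTCA), PU.1 (GAGGAAGT), the CCAAT box (CCAAT), the TATA box (TATAAA), the GC box (GGGCGG) and the E-box (CACGTG). No marked match overlaps another.
S100a6 (chr3:90612644-90612943, plus strand): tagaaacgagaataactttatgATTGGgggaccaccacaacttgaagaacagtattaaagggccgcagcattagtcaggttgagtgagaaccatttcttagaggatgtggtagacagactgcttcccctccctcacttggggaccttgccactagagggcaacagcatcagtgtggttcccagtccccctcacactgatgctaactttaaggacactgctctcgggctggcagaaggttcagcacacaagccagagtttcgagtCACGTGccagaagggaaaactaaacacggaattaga
Lgals3 (chr14:47373610-47373909, plus strand): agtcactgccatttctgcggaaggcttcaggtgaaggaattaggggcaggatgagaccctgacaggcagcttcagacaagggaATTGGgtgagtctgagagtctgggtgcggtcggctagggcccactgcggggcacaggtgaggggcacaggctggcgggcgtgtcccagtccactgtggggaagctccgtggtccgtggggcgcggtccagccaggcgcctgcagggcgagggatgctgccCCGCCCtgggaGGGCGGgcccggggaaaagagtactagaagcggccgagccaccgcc
Anxa2 (chr9:69453433-69453732, plus strand): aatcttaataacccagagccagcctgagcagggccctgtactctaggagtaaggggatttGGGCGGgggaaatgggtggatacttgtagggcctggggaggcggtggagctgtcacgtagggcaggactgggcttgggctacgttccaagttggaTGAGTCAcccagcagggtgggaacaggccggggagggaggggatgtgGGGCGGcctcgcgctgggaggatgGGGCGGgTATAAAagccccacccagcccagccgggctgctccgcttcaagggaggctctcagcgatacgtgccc
Anxa1 (chr19:20390622-20390921, minus strand): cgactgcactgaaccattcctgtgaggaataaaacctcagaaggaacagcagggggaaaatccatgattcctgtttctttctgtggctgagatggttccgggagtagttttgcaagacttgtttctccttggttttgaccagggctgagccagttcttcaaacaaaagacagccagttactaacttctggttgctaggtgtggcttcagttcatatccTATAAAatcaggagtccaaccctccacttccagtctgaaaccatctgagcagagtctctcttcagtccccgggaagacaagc
Vim (chr2:13574061-13574360, plus strand): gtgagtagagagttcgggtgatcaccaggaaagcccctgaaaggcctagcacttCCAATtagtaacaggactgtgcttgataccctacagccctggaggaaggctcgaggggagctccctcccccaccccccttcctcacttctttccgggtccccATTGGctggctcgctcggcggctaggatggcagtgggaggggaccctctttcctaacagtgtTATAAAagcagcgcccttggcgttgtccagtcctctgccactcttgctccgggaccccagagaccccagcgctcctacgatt

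Of the 9 listed genes, 7 had a promoter in the RefSeq table; *S100a10* and *Lgals1* had no entry. No motif among those searched was common to the 3 promoters of *S100a6*, *Lgals3* and *Anxa2*. *S100a6* held a CCAAT box and an E-box, *Lgals3* a CCAAT box and GC boxes, and *Anxa2* an AP-1 match, GC boxes and a TATA box. A TATA box stood at -32 from the start in both *Anxa1* and *Vim* and at -31 in *S100a4*. In all, 4 of the 7 promoters held TATAAA, against 13.6% of the 32851 promoters in the table. An AP-1 match occurred in 2 of 7 (*Anxa2* and *S100a11*) against 7.81%, a GC box in 3 against 35.7%, a CCAAT box in 3 against 37.4% and an E-box in 2 against 7.15%. PU.1 letters occurred in 1 (*S100a4*) against 3.20%, and CRE letters in 0 against 1.79%. The GC content of the windows ran from 47.3% (*Anxa1*) to 67.0% (*Lgals3*), with a median of 52.7% over all promoters. These matches describe letters in the windows and show no binding.

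The S100 members lie in 2 places on chromosome 3. *S100a6* (90612882 to 90624181) begins 6.84 kb after the end of *S100a4*, and *S100a10* (93555080 to 93564643) begins 28.8 kb after the end of *S100a11* (93520488 to 93526287). The others are spread over chromosomes 15 (*Lgals1*, 78926725 to 78930465), 14 (*Lgals3*, 47367751 to 47386160), 19 (*Anxa1*, 20373428 to 20390944), 9 (*Anxa2*, 69453620 to 69491795) and 2 (*Vim*, 13573927 to 13582826), in GENCODE M21. RefSeq lists a pseudogene for *S100a11* on chromosome 12 and for *Lgals1* on chromosome 17. Neither had a row, and how reads shared with such copies were counted is not given in the sources used here, so these 2 levels are uncertain. Within *Anxa2* lies an antisense gene, *Gm16144*, with a mean of 0.824 FPKM. *Anxa1* is overlapped on the opposite strand by *1500015L24Rik*, which had no row, and whether counting used the strand is not stated.

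*S100a6*, calcyclin, showed the widest range of the members. It read 366 and 367 FPKM in Hoxa-flox 1 and 2 and 431 in Hoxa-del 2, but 39.4 in Hoxa-flox 3, 46.3 in Hoxa-del 1 and 41.6 in Hoxa-del 3. The WT libraries lay between these levels, at 72.7, 65.8 and 77.0 with the control virus and 69.8, 78.7 and 75.3 with Cre. Each set held libraries of both viruses, and no library of one set came near the other. The ratio of the set means was 9.14, and the difference on the scale of log2(FPKM + 1), used for all differences below, was 3.16. By absolute size it ranked 12 of the 13169 symbols tested, those averaging 1 FPKM or more.

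Galectin-3 followed the same split. *Lgals3* read 261, 260 and 293 FPKM in Hoxa-flox 1, Hoxa-flox 2 and Hoxa-del 2, and 53.3, 64.7 and 53.6 in Hoxa-flox 3, Hoxa-del 1 and Hoxa-del 3. In WT it read 242, 225 and 233 with the control virus and 254, 241 and 232 with Cre. Set A lay just above the highest WT library, and set B far below the lowest (log2 difference between the sets 2.23). For *S100a6*, by contrast, set A was the one farther from WT.

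*Anxa2* read 262, 267 and 310 FPKM in set A (Hoxa-flox 1, Hoxa-flox 2, Hoxa-del 2) and 119, 81.2 and 91.9 in set B (Hoxa-flox 3, Hoxa-del 1, Hoxa-del 3). The 6 WT libraries ran from 119 to 143. Set A was above all WT libraries, and set B reached no higher than the lowest of them. *S100a10*, its binding partner, read 98.5, 100.0 and 110 in set A, and 73.0, 28.4 and 55.5 in set B. In WT it read 30.1, 27.8 and 29.1 with the control virus and 29.5, 37.9 and 23.7 with Cre. All set A libraries and Hoxa-flox 3 and Hoxa-del 3 were above WT, while Hoxa-del 1 lay within its range. The log2 difference between the sets was 1.53 for *Anxa2* and 1.06 for *S100a10*.

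The differences between the sets were smaller for *S100a11* and *Lgals1*. *S100a11* read 265, 246 and 263 FPKM in set A and 168, 213 and 123 in set B (log2 difference 0.65). Galectin-1, the member with the highest mean over the 12 libraries though not in every group, read 344, 325 and 469 in set A and 306, 160 and 218 in set B (0.76). WT libraries spanned 257 to 409 for *S100a11* and 248 to 369 for *Lgals1*, ranges that overlapped set A in both genes.

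*Anxa1* and *Vim* did not separate the sets. *Anxa1* read 12.2, 12.4 and 11.3 FPKM in set A and 6.00, 20.5 and 9.32 in set B, so that Hoxa-del 1 was the highest and Hoxa-flox 3 the lowest of the floxed libraries. *Vim* read 270, 282 and 230 in set A and 351, 176 and 338 in set B, where Hoxa-del 1 was the lowest and Hoxa-flox 3 the highest. Without Hoxa-del 1, all 8 members separated the sets, 7 higher and *Vim* lower in set A. With each of the other libraries left out, 6 did. Leaving out a library can only add to such a count, among all genes as among the members.

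**Figure D1:**
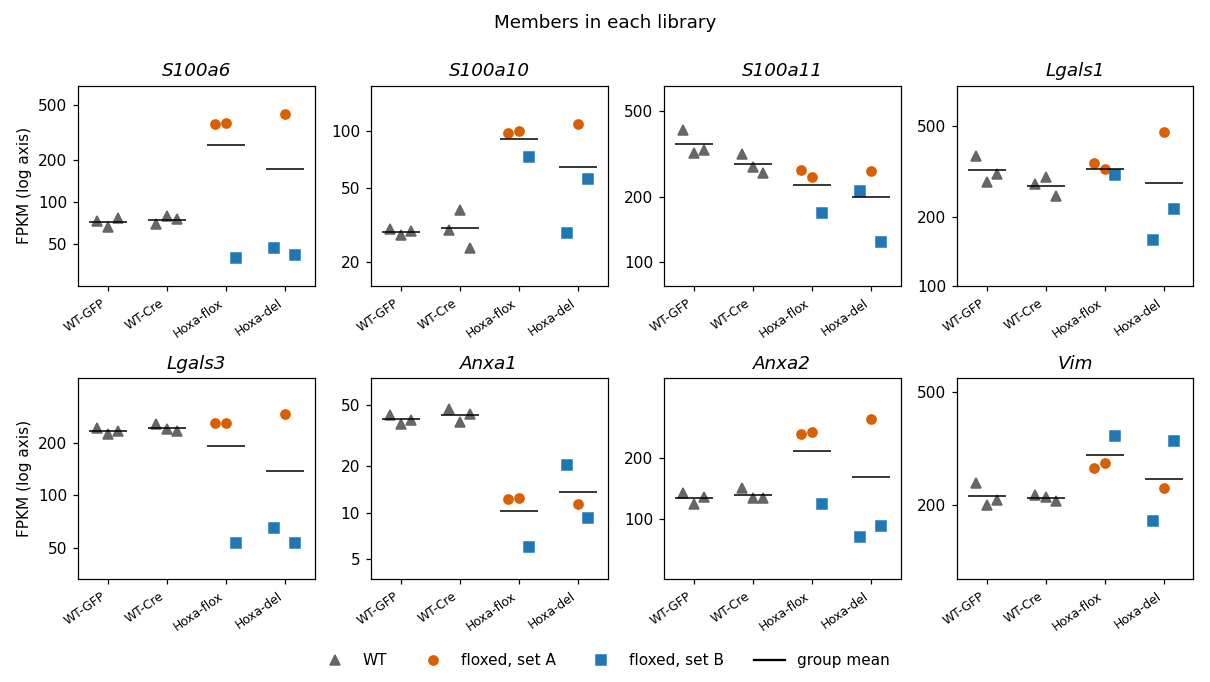
FPKM (log axis) of the 8 members in each library by group; triangles are WT, circles floxed set A, squares floxed set B, and bars group means. Circles lie above squares in 6 panels, with S100a6 at 366 to 431 FPKM in set A and 39.4 to 46.3 in set B; in Anxa1 and Vim they mix.

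In all, 6 of 8 members were higher in every library of set A than in any of set B and 0 were lower; among all genes tested the shares were 31.7% and 23.1%, or 54.8% in either direction. The median difference was 0.91 for the members and 0.08 for all genes. The values that chose the sets include these genes, so nothing further is read from this. *Mki67*, the proliferation marker Ki-67, ran opposite, at 14.9 to 17.8 FPKM in set A and 84.6 to 93.2 in set B. The values that chose the sets include *Mki67* as well, so its split is no separate observation. Within WT the members varied little: the SD of the 6 log2 values had a median of 0.10 over the members (0.15 over all genes). Within the floxed cells it was 0.63 (0.34 over all genes). *Lgals3* differed at most 1.13-fold among WT libraries and 5.49-fold among floxed ones, and *S100a6* 10.9-fold among floxed ones.

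The response to Cre was then examined, first in the floxed cells. Of the 8 members, 0 changed between Hoxa-flox and Hoxa-del (limma, Benjamini-Hochberg over all genes, adjusted p = 0.73 to 0.81), 0 at an unadjusted p under 0.05, and 0 had groups that did not overlap. Over all genes 0.0304% were called (0.00759% higher and 0.0228% lower) and 6.39% did not overlap (2.25% higher and 4.14% lower). At an unadjusted p under 0.05 there were 826 of the 13169 genes tested (limma). *S100a10* had a mean of 90.5 ± 15.1 FPKM before and 64.6 ± 41.5 after Cre (SD, n = 3; log2 change -0.67, SE 0.37, adjusted p = 0.730, limma). *S100a6* averaged 258 ± 189 and 173 ± 223, with an interval of -2.91 to 1.15, an interval that holds large changes either way. *Anxa1* was the only member with a higher mean after Cre, 13.7 ± 5.98 against 10.2 ± 3.66 (log2 change 0.38, interval -0.26 to 1.02). The median change was -0.48 for the members and -0.06 for all genes.

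These means mix the sets, since Hoxa-flox held 2 libraries of set A and Hoxa-del 1. With the set as a term in the fit, *S100a6* and *Lgals3* changed sign, to 0.19 and 0.16, and 0 members passed. Within set A, Hoxa-del 2 was above the mean of Hoxa-flox 1 and 2 by 0.23 for *S100a6*, 0.17 for *Lgals3* and 0.23 for *Anxa2*. Within set B, the 2 Hoxa-del libraries averaged 0.15 above Hoxa-flox 3 for *S100a6* and 0.14 for *Lgals3*, but differed from it by -0.46 for *Anxa2*. *S100a10* (0.15 and -0.86), *S100a11* (0.04 and -0.05), *Lgals1* (0.49 and -0.71) and *Anxa1* (-0.11 and 1.09) also went opposite ways in sets A and B. *Vim* was lower in Hoxa-del in both (-0.26 and -0.52). These within-set values rest on 1 library on one side and have no test. Without Hoxa-del 2, 3 members were called lower in Hoxa-del, *S100a10* (-1.15, adjusted p = 0.0452), *Lgals1* (-0.80, adjusted p = 0.0437) and *Anxa2* (-1.22, adjusted p = 0.0461, limma). Both Hoxa-del libraries were then of set B and 2 of 3 Hoxa-flox libraries of set A, so set and Cre cannot be told apart there. The shares of all genes given above are from the fit of all 12 libraries and do not apply to this count.

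**Figure D2:**
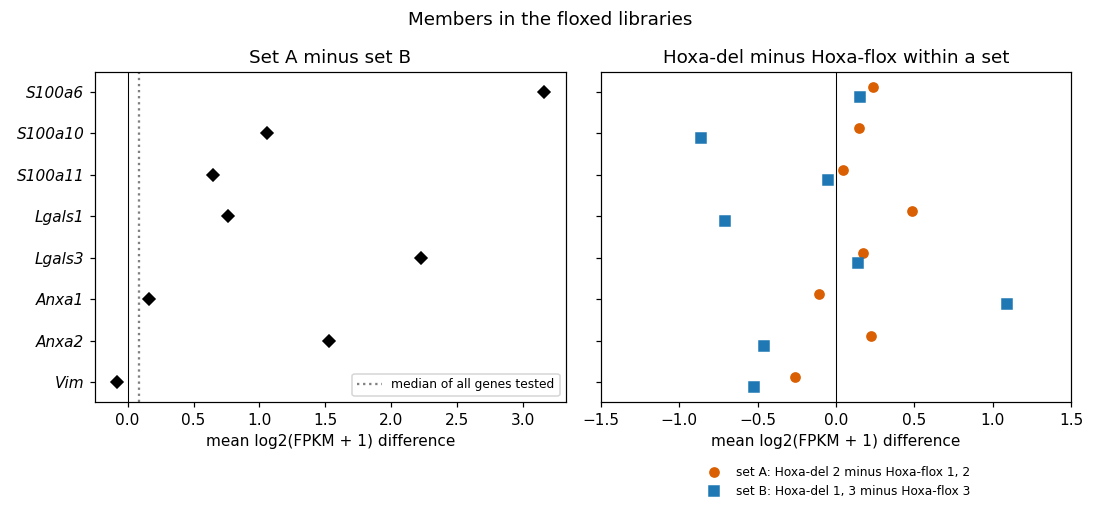
Left, mean log2(FPKM + 1) of set A minus set B for each member, with the median of all genes tested (0.08) as a dotted line. Right, Hoxa-del minus Hoxa-flox within set A (circles) and set B (squares); S100a6 lies at 3.16 on the left and at 0.23 and 0.15 on the right.

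In WT cells Cre has no floxed cluster to remove. Of 8 members, 0 passed the test between WT-GFP and WT-Cre (limma, adjusted p = 1), 0 at an unadjusted p under 0.05, against 0.0152% of all genes called (0.00759% in each direction). At an unadjusted p under 0.05 there were 312 of the 13169 genes tested (limma). *Lgals3* averaged 233 ± 8.45 and 242 ± 11.3 FPKM, *Anxa1* 40.3 ± 2.74 and 43.1 ± 3.90, *Anxa2* 127 ± 7.65 and 132 ± 9.44, and *Vim* 216 ± 20.3 and 213 ± 5.72 (SD, n = 3). *S100a11* was the 1 member whose groups did not overlap, at 409, 320 and 328 with the control virus and 316, 275 and 257 with Cre; 25.7% of all genes did not overlap here (9.31% higher and 16.3% lower). Its log2 change was -0.32 (SE 0.27). The fit pools 1 spread over the 4 groups, which is larger than that of the WT libraries alone and smaller than that of the floxed ones. When the change with Cre in floxed cells was set against that in WT cells, 0 of 8 members passed (limma, adjusted p = 0.9997; 0 at an unadjusted p under 0.05; 0.00759% of all genes called, all higher, and 0% lower). Over all genes, 324 of 13169 were at an unadjusted p under 0.05 in that comparison (limma). The estimates of the members ran from -0.94 (SE 1.31) for *S100a6* to 0.29 (SE 0.41) for *Anxa1*.

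Floxed and WT leukemic cells were compared under the same virus. Genotype, leukemia and the strain given in the labels differed together between them and cannot be told apart. With the control virus 2 of 8 members passed, while 26.8% of all genes did (13.3% higher and 13.5% lower). *Anxa1* was lower in Hoxa-flox, at 12.2, 12.4 and 6.00 FPKM against 43.2, 37.7 and 40.0 in WT-GFP (log2 difference -1.94, SE 0.29, adjusted p = 0.00054, limma). *S100a10* was higher, at 98.5, 100.0 and 73.0 against 30.1, 27.8 and 29.1 (1.59, SE 0.37, adjusted p = 0.00886, limma). Both calls held with each library left out in turn.

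The other members did not pass in this comparison. *S100a11* averaged 227 ± 51.5 FPKM in Hoxa-flox and 353 ± 49.0 in WT-GFP, with groups that did not overlap (-0.65, adjusted p = 0.0990, limma). *Vim* averaged 301 ± 43.8 and 216 ± 20.3, again without overlap (0.47, adjusted p = 0.132, limma); 47.2% of all genes did not overlap (23.9% higher and 23.3% lower). *Lgals1* had nearly equal means, 325 ± 19.1 and 320 ± 43.2 (0.03, 95% interval -0.66 to 0.71). *S100a6* had a difference of 1.28 (adjusted p = 0.346), which passed without Hoxa-flox 3, the library of set B (2.34, adjusted p = 0.0419, limma). *Anxa2* (0.67) and *Lgals3* (-0.60) had adjusted p-values of 0.307 and 0.554; the sign of *Lgals3* turned without Hoxa-flox 3 (0.16).

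With Cre, *Anxa1* was again lower in the floxed cells. It read 20.5, 11.3 and 9.32 FPKM in Hoxa-del and 46.6, 38.9 and 43.7 in WT-Cre (-1.65, SE 0.29, adjusted p = 0.00163, limma), and the call held with each library left out. It was the 1 of 8 members to pass, against 27.2% of all genes (13% higher and 14.2% lower). Groups did not overlap for 41.3% of all genes, 20.7% in each direction. *S100a10* averaged 64.6 ± 41.5 against 30.4 ± 7.14 (0.88, adjusted p = 0.106, limma), and passed without Hoxa-del 1 (1.36, adjusted p = 0.00608). Without Hoxa-del 2, the 1 library of set A, 4 members were called lower, namely *Anxa1*, *Lgals3* (-2.02, adjusted p = 0.0192), *Lgals1* (-0.55, adjusted p = 0.0322) and *S100a11* (-0.79, adjusted p = 0.0414). *S100a6* then turned from 0.34 to -0.75 and *Anxa2* from 0.01 to -0.60, without passing. The 27.2% of all genes is from the fit of all 12 libraries and does not apply to the 4 members called without Hoxa-del 2.

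**Figure D3:**
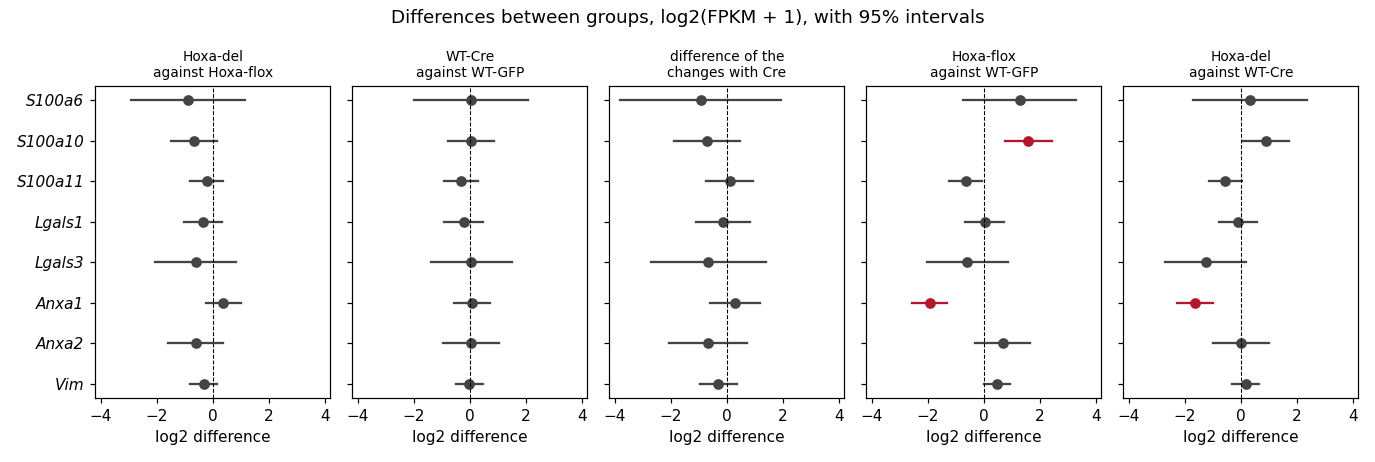
Differences of log2(FPKM + 1) for the 8 members in 5 comparisons; points are estimates, lines 95% intervals, and red marks an adjusted p under 0.05 (limma, over all genes). Red marks Anxa1 in both comparisons of floxed with WT cells (-1.94 and -1.65) and S100a10 with the control virus (1.59).

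By mean FPKM, which is scaled to length, the order of the members differed between the groups. In WT-GFP *S100a11* (353) and *Lgals1* (320) led, and *S100a10* (29.0) was the lowest, below *Anxa1* (40.3). In Hoxa-flox *Lgals1* (325) and *Vim* (301) led and *Anxa1* (10.2) was the lowest. For *S100a6*, *S100a10* and *Anxa2* the group means fell in the order Hoxa-flox, Hoxa-del, WT-Cre, WT-GFP, and each neighbouring pair in that order overlapped. For *Anxa1* the order was WT-Cre, WT-GFP, Hoxa-del, Hoxa-flox, and only WT-GFP and Hoxa-del did not overlap as neighbours.

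Relatives of the members were then examined. With Cre, 0 of the 5 other S100 genes, 4 other galectin genes and 7 other annexin genes tested passed in floxed or in WT cells (limma). At an unadjusted p under 0.05 there were 2 annexin genes in floxed cells and 0 others. Of the 13169 genes tested, 826 were under it in floxed cells and 312 in WT cells. Between Hoxa-flox and WT-GFP, 3 of 5 S100 genes were lower and 0 higher, against 13.5% and 13.3% of all genes. These were the calprotectin subunits *S100a8* (455 ± 334 against 2197 ± 141 FPKM; -2.82, adjusted p = 0.0328) and *S100a9* (350 ± 271 against 2260 ± 101; -3.39, adjusted p = 0.0225), and *S100a3*. *S100a3*, which lies next to *S100a4*, read 2.53, 1.56 and 0.943 FPKM in Hoxa-flox against 31.1, 28.4 and 29.3 in WT-GFP, and was named after its values were seen. *S100a1* and *S100a13* did not pass. *S100a8* and *S100a9* did not separate the floxed sets: Hoxa-del 1 read 818 and 543 FPKM, above all of set A, while Hoxa-flox 3 read 70.6 and 38.2 and Hoxa-del 3 104 and 62.9.

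Of the other annexins, 2 of 7 were higher and 1 lower in Hoxa-flox than in WT-GFP, against 13.3% and 13.5% of all genes. *Anxa7* (0.61) and *Anxa9* (0.99) were the higher ones, named after their values were seen. *Anxa3* was the lower one, at 84.2 ± 13.7 FPKM against 222 ± 11.4 (-1.40, adjusted p = 0.00209, limma), and *Anxa5*, *Anxa6* and *Anxa11* did not pass. Between the floxed sets 5 of the 7 were higher and 1 lower in set A without overlap, against 31.7% and 23.1% of all genes. *Anxa5*, which binds phosphatidylserine, read 109, 105 and 86.6 in set A and 52.4, 47.1 and 40.3 in set B, and *Anxa6* 60.6, 61.7 and 62.0 and then 27.9, 22.5 and 24.4. *Anxa3* ran opposite, at 75.9, 76.7 and 63.1 and then 100.0, 152 and 103.

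Among the 4 other galectin genes, 1 was higher (13.3% of all genes were) in Hoxa-flox than in WT-GFP, the low-expressed *Lgalsl* (1.58 ± 0.594 against 0.318 ± 0.297 FPKM). *Lgals9*, the galectin that binds TIM-3, did not pass, and read 147, 142 and 138 in set A and 96.0, 69.1 and 73.5 in set B. The gene of the galectin-3 binding protein, *Lgals3bp*, showed a wider difference than its partner, at 71.5, 66.6 and 67.8 in set A against 5.34, 9.62 and 4.43 in set B, with 33.1 to 38.8 in WT. It was chosen after its values were seen.

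Of the receptors and partners, 11 were tested, and 0 passed with Cre in either genotype (limma). At an unadjusted p under 0.05 there were 0, against 826 of 13169 genes in floxed cells and 312 in WT cells. In Hoxa-flox 1 was higher and 4 lower than in WT-GFP (13.3% and 13.5% of all genes). The myosin gene *Myh9*, whose heavy chain S100A4 binds, averaged 265 ± 57.3 against 440 ± 33.8 FPKM (-0.75, adjusted p = 0.0279). The adhesion receptor gene *Cd44* averaged 54.6 ± 6.83 against 80.3 ± 4.14 (-0.56, adjusted p = 0.0106). *Plec*, which links vimentin to other filaments, and *Itgb1* did not pass. The others, named after their values were seen, were the formyl peptide receptor gene *Fpr2* (0.226 ± 0.196 against 3.06 ± 0.579), *Ager* (1.50 ± 0.349 against 4.41 ± 0.416) and *Tlr4*, the higher one (42.5 ± 2.35 against 20.5 ± 1.25). Of the 6 other intermediate filament genes tested, 2 were lower in Hoxa-flox (13.5% of all genes were), *Des* (-1.49, adjusted p = 0.0019, named after its values were seen) and the keratin gene *Krt80* (4.94 ± 2.85 against 23.9 ± 2.92; -2.21, adjusted p = 0.00391, limma). The lamin gene *Lmnb1* did not pass, and read 20.4 to 22.3 in set A and 45.2 to 74.9 in set B.

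**Figure D4:**
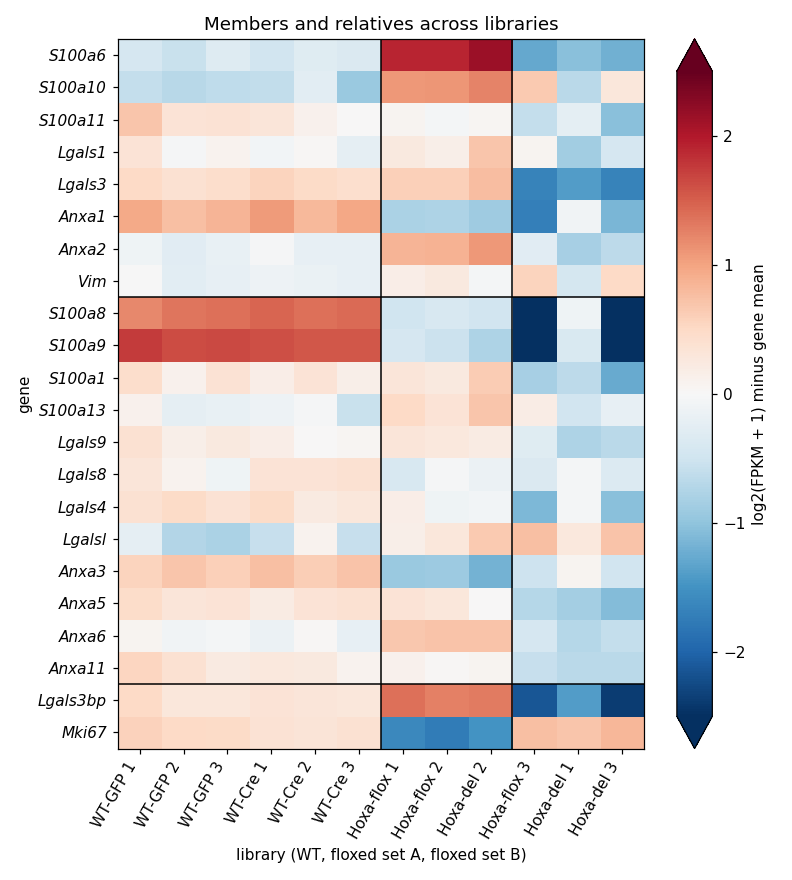
log2(FPKM + 1) minus the mean of each gene, for the members, relatives, Lgals3bp and Mki67 (rows) in the 12 libraries (columns; WT, set A, set B); colors end at -2.5 and 2.5. S100a6 and Lgals3bp are high in set A and low in set B, Mki67 is the reverse, and S100a8 and S100a9 are low in Hoxa-flox 3 and Hoxa-del 3 but not in Hoxa-del 1.

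The genes whose profile was most like that of each member were sought over the 12 libraries, by the root mean square difference of log2 values centred on the mean of each gene. The libraries share genotype and set, so likeness is a description. *S100a6* was most like *Lsp1* (0.24), which encodes a leukocyte actin-binding protein, and *Dpep2* (0.32). *Lgals3* was most like the macrophage genes *Cd68* (0.11) and *Fcgr4* (0.15), and *Anxa2* like the chemokine receptor gene *Ccr1* (0.10) and *Adgre1* (0.11), which encodes F4/80. *Cd68* averaged 125 FPKM in set A, 23.4 in set B and 109 in WT, and *Ccr1* 45.3, 16.7 and 21.2. *Anxa1* was nearest to *Tbc1d8* (0.15) and *AY512931* (0.17), *S100a10* to *Gm10076* (0.17) and *Poll* (0.21), and *S100a11* to *Rnaset2a* (0.12) and *Acot8* (0.13). *Lgals1* was nearest to *Commd5* (0.11) and *Pycard* (0.11), and *Vim* to *Stoml2* (0.11) and *Dpp9* (0.11). The members stood farther from each other: the nearest member to *S100a6* was *Anxa2* (0.65), ranked 93rd of all genes, and the nearest to *S100a10* was also *Anxa2* (0.53), ranked 1224th.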

How the data were processed

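RNA-seq of 12 libraries was used (total RNA, ribosomal RNA depleted, stranded kit, Illumina sequencing, per the labels' protocols). Per the submitters' processing notes, Cuffdiff 2.2.2.20150701, Cufflinks and STAR and the build GRCm38 (mm10) were used, in roles not stated there. The deposited values were taken as FPKM, the unit Cufflinks gives; the header states no unit, and neither scaling nor annotation is stated. Library sums ran from 548383 to 1211907 and upper quartiles from 9.38 to 9.91. A repeated symbol was represented by its row of highest mean. Depth was estimated from ratios of low values (mean under 0.3 FPKM, 447 genes with 1 transcript in GENCODE M21), so it is approximate and covers counting error only. A linear model of the 4 groups was fitted to log2(FPKM + 1) for the 13169 symbols averaging 1 FPKM or more, using limma 3.58.1 with a mean-variance trend in R 4.3.3, with p-values adjusted by Benjamini-Hochberg and called under 0.05. This scale understates changes of low genes. The fit was tested on simulated data for Hoxa-del against Hoxa-flox only, with libraries drawn independently and without the sets. It made few false calls with 1 spread per gene and too many where each group kept its own spread. Calls in that comparison can therefore be too many. Whether this also holds for floxed against WT libraries was not tested. All 8 members with a row passed the filter. Named genes were the members, up to 4 genes with the highest mean of each list, and the 2 genes most like each member. Others are marked, except *Hoxa9*, genes that overlap a member and some in the paragraph on cell markers. The members, lists and sets were chosen with earlier results of these data known. Alternatives were a pseudocount of 0.1, no filter, equal upper quartiles, summed rows, a fit of only the groups compared, a replicate term, the set as a term, libraries weighted by the spread of their group (added after seeing the data) and each library left out.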

Additional observations from a re-analysis of the deposited data

How the results depend on the processing

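Of 288 member changes recomputed under alternatives other than leaving out a library, 282 kept direction and side of the threshold and 5 changed sign, all with the library set as a term: in Hoxa-del against Hoxa-flox *S100a6* (0.19) and *Lgals3* (0.16), and in the difference of the changes with Cre *S100a6* (0.14), *Lgals3* (0.10) and *Lgals1* (0.11). With the replicate block, *S100a11* also passed in Hoxa-flox against WT-GFP (adjusted p = 0.0450, limma), which gave 3 members in place of 2; the block changed no other call. Whether libraries of the same number are paired is not given. In no comparison did all 3 same-numbered pairs deviate together with r over 0.1 (-0.30 to 0.72 for Hoxa-del against Hoxa-flox, -0.01 to 0.09 for WT-Cre against WT-GFP, -0.10 to 0.21 for Hoxa-flox against WT-GFP, 0.01 to 0.07 for Hoxa-del against WT-Cre). With 3 libraries per group, and sets that cross the floxed groups, this cannot exclude pairing. With libraries weighted by the spread of their group, chosen after seeing the data, no member call changed, and 7 genes in place of 2 were called in WT-Cre against WT-GFP. With 1 library left out, the count of members past the threshold ran from 0 to 3 for Hoxa-del against Hoxa-flox, from 1 to 4 for Hoxa-del against WT-Cre and from 2 to 3 for Hoxa-flox against WT-GFP, and stayed at 0 for the other 2 comparisons. How many of all genes were called in those fits is not given here. Of 288 member changes recomputed with 1 library left out, 21 changed sign and 8 newly passed. The ranges of those that changed sign in Hoxa-del against Hoxa-flox were -0.45 to 0.0921 (*S100a11*). In WT-Cre against WT-GFP they were -0.0703 to 0.0565 (*Vim*), -0.00602 to 0.11 (*S100a6*), -0.00864 to 0.0884 (*Anxa2*) and -0.13 to 0.20 (*S100a10*). In the difference of the changes with Cre they were -0.14 to 0.41 (*S100a11*), -0.0214 to 0.51 (*Anxa1*) and -0.58 to 0.20 (*Lgals1*). In Hoxa-flox against WT-GFP they were -0.0531 to 0.13 (*Lgals1*) and -0.98 to 0.16 (*Lgals3*). In Hoxa-del against WT-Cre they were -0.60 to 0.36 (*Anxa2*), -0.55 to 0.22 (*Lgals1*), -0.75 to 0.92 (*S100a6*) and -0.0782 to 0.39 (*Vim*). The number of members separating the sets ran from 6 to 8. The fit of only the groups compared has no counterpart for the difference of the changes, which uses all 4. The cause of these shifts was not tested.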
